A study of Mus musculus with 4 samples.

Results

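The genes described here are 35 genes of fat cells and of lipid synthesis, read in quadriceps muscle RNA. They were taken from a list by gene symbol and fall into 3 roles: 13 adipocyte markers, 11 genes of fatty acid synthesis and 11 of sterol synthesis. Of the 35 genes, 31 had a row among the 17904 genes of the value table. Perilipin 1 (Plin1) and malic enzyme 1 (Me1) stood there under their older names Plin and Mod1. Expression of Acaca, Acacb, Hmgcs1 and Fdft1 was not analysed here. The samples were quadriceps muscle of CD-1 males aged 5 weeks, 2 labelled Lin28A Tg, for a transgene of the RNA-binding protein Lin28a, and 2 labelled WT, for wild type. Each was read on 1 Illumina Ref-8 bead array as biotin-labelled cRNA. The labels name neither the promoter that drives the transgene nor the source line, and they do not say whether RNA of several animals was pooled. The comparison asks how muscle transcripts differ between mice with and without the transgene. The replicates are numbered samples about which the labels say no more, so a p-value here speaks of the scatter among these arrays, which may be technical. With 4 arrays the precision is low.

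Adipocytes store triglyceride in a lipid droplet and secrete hormones such as leptin and adiponectin. In muscle they lie between the fibres and around the tissue, so the amount of fat taken along with a dissected muscle can differ between samples. Fatty acids are built in the cytosol from citrate-derived acetyl-CoA and are then elongated and desaturated. Cholesterol is built from the same precursor through mevalonate and squalene. The transcription factors SREBP-1 and SREBP-2, encoded by Srebf1 and Srebf2, drive fatty acid and sterol genes respectively, and PPAR-gamma, encoded by Pparg, drives the fat cell programme.

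The arrays were examined before the members. Intensity is a brightness without background subtraction, and a gene was taken as above background where it exceeded 90.0 on an array. The muscle fibre markers Acta1, Ckm and Atp2a1 read between 16517 and 33637 on all 4 arrays. Of 15 muscle fibre markers 13 were tested, so the muscle label held on its defining genes. Slow fibre markers differed between arrays. Of 10 tested, WT replicate 1 was lowest for 7 and WT replicate 2 highest for 6, beside 28.8% and 26.2% of all genes. Among them Myl3 read 370.9 and 1887 in Lin28A Tg and 195.5 and 3547 in WT. Whether the same part of the muscle was sampled was not tested. The Lin28a probe read below the threshold on all 4 arrays, at 86.4 and 88.0 in Lin28A Tg and 82.9 and 82.6 in WT, so it does not check the labels; where the probe lies on the transcript was not examined. WT replicate 1 stood apart, with correlations of log2 intensity of 0.976 to 0.979 with the other arrays, against 0.985 to 0.990 among those. On that array 16 of 24 hepatocyte markers exceeded background, against 3 to 7 on the others, and their summed intensity was 23568, against 2377 and 2885 in Lin28A Tg and 2491 on WT replicate 2.

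The promoters of 4 members are shown because these genes, an adipokine pair (Adipoq, Lep) and a lipogenic pair (Thrsp, Acly), moved together between the arrays in the values that follow. Each runs 5′ to 3′ from 250 bases before to 50 bases after the RefSeq start of the gene, on build GRCm38.p6. Capitals mark matches to the motifs searched.
Adipoq (chr16:23146286-23146585, plus strand): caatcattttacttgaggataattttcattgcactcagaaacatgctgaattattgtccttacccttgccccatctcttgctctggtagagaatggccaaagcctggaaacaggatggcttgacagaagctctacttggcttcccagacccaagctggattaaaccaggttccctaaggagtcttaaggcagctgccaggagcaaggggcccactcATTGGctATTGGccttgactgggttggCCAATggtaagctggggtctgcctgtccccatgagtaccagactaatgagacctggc
Lep (chr6:29059971-29060270, plus strand): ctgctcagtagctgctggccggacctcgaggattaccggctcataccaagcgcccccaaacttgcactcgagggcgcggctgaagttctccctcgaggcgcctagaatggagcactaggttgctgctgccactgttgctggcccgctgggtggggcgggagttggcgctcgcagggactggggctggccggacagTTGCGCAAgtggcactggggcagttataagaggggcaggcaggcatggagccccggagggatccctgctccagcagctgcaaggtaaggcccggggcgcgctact
Thrsp (chr7:97417501-97417800, minus strand): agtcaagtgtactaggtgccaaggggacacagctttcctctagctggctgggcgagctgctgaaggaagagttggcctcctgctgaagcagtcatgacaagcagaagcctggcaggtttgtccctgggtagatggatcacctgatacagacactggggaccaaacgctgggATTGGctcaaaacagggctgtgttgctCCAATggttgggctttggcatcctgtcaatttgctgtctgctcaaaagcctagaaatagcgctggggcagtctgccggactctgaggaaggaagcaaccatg
Acly (chr11:100527951-100528250, minus strand): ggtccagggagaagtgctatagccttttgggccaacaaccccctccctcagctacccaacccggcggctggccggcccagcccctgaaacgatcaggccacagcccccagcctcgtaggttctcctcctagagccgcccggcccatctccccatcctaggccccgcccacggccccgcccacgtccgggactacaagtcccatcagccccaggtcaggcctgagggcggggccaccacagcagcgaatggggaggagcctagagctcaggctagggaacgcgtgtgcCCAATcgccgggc
On both strands the search covered CCAAT (the NF-Y box), TTGCNNAA (C/EBP), CACGTG (an E-box), TCACNCCAC (a sterol regulatory element), the direct-repeat PPAR element and TATAAA. Adipoq held 3 CCAAT boxes, Thrsp 2 and Acly 1, the match of Acly lying after the RefSeq start. Lep held 1 C/EBP match, and no matches overlapped. CCAAT was found in 14 of 28 member promoters with an entry, counting 1 promoter per gene, and in 37.4% of all 32851 promoters. TTGCNNAA was found in 3 of the 28 and in 10.8% of all, and TCACNCCAC only in that of Hmgcs1 among the 28, and in 1.24% of all. These are matches of letters, and binding was not measured.

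No member passed the test of Lin28A Tg against WT. With limma and Benjamini-Hochberg adjustment over the 7918 genes tested, 0 genes (percent called 0) had an adjusted p under 0.05 in either direction, and the lowest among the 24 members tested was 0.538. At an unadjusted limma p under 0.05 there was 1 member lower in Lin28A Tg and 0 higher, where 3.8% of all genes tested were lower and 5.04% higher. Both Lin28A Tg arrays lay below both WT arrays for 5 of the 24 members, against 16.8% of all genes, and above them for 1, against 21.6%. Log2 fold changes were negative for 19 of the 24 and positive for 5. Of all genes tested 3694 were negative and 4224 positive. The 24 tested members exceeded background on at least 2 arrays, and 17 of them on all 4. Plin1 and Lss exceeded it on 1 array of each group. Of the 7 not tested, 4 exceeded it on no array and 3 on 1.

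**Figure D1:**
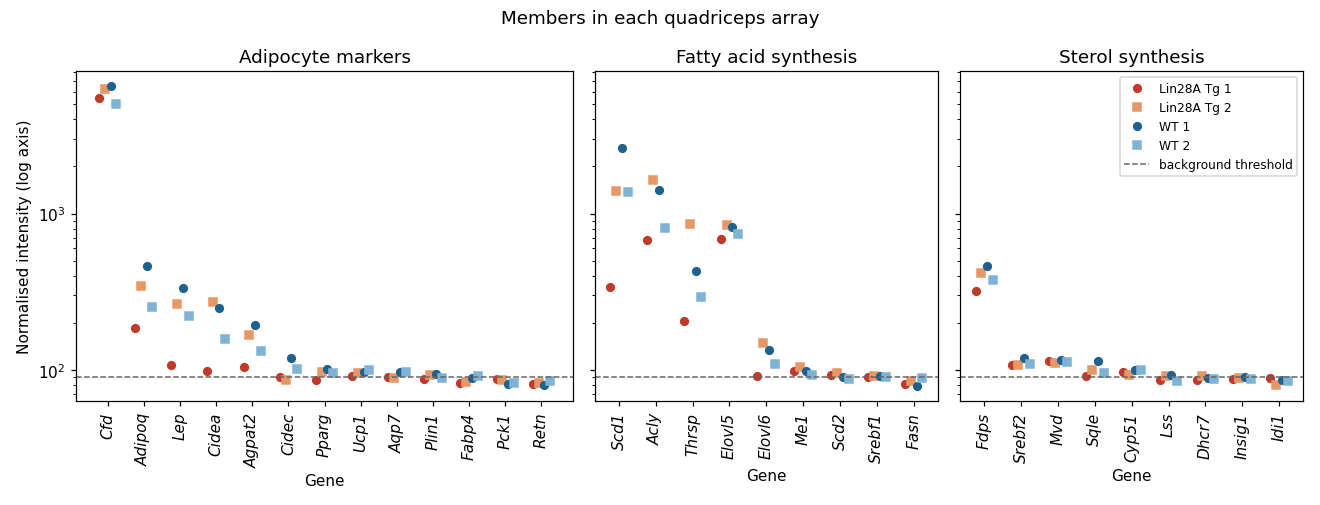
Normalised intensity on a logarithmic axis of the 31 members in the value table, by role, with 1 point for each of the 4 arrays (red and orange Lin28A Tg, dark and light blue WT) and the background threshold of 90.0 as a dashed line. The points of the 2 Lin28A Tg arrays lie far apart for Scd1, Thrsp, Acly, Lep and Cidea, and most sterol genes lie near the threshold.

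The adipocyte hormones leptin, adiponectin and adipsin were read in every sample, and the first 2 differed widely within groups. Leptin (Lep), the satiety hormone of fat cells, read 108.0 and 263.0 in Lin28A Tg and 333.9 and 222.1 in WT. Lin28A Tg replicate 1 was lowest, WT replicate 1 highest, and the groups overlapped. The means were 185.5 ± 110 and 278.0 ± 79.1 (SD, n = 2 each), and the log2 fold change was -0.69 (SE 0.49, limma adjusted p = 0.773). Without Lin28A Tg replicate 1 it was -0.05, and without Lin28A Tg replicate 2 it was -1.33. Adiponectin (Adipoq), an insulin-sensitising hormone, read 185.2 and 345.5 in Lin28A Tg and 464.6 and 253.1 in WT. Its arrays stood in the same order as those of Lep, and the groups overlapped. The log2 fold change of -0.44 (SE 0.43, limma adjusted p = 0.84) was 0.01 without Lin28A Tg replicate 1. Adipsin (Cfd), a complement protease secreted by fat cells, was the most intense member, at 5435 and 6252 in Lin28A Tg and 6543 and 5037 in WT. It varied by 1.3-fold over the arrays and differed by 0.02 (SE 0.16, limma adjusted p = 0.985) on the log2 scale. The resistin probe (Retn) stayed below background on all arrays, at 80.6 to 84.6.

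Of the lipid droplet genes, Cidea and Agpat2 were above background on all arrays, and Cidec and Plin1 were near it. Cidea, which enlarges lipid droplets, read 99.1 and 273.2 in Lin28A Tg and 247.7 and 158.1 in WT. The lowest and the highest array were both Lin28A Tg, 2.76-fold apart, and the log2 fold change was -0.27 (SE 0.55, limma adjusted p = 0.948). Leaving out Lin28A Tg replicate 1 turned it to 0.47. Its relative Cidec, the droplet fusion protein of white fat, read 90.3 and 85.7 in Lin28A Tg and 118.7 and 101.9 in WT. It was the member at an unadjusted p under 0.05, with both Lin28A Tg arrays lower and only 1 of them above background. The log2 fold change was -0.32 (SE 0.10), with a limma adjusted p of 0.538, and normexp background correction of the deposited, already normalised intensities with an offset of 16 took it to -0.84. Perilipin (Plin1), the coat protein of the droplet, read 87.0 and 92.5 in Lin28A Tg and 94.0 and 88.2 in WT, at background level with overlapping groups. Agpat2, an acyltransferase of triglyceride assembly, read 104.4 and 166.5 in Lin28A Tg and 193.2 and 132.2 in WT. Again Lin28A Tg replicate 1 was lowest and WT replicate 1 highest (log2 fold change -0.28, SE 0.30, limma adjusted p = 0.859).

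The other adipocyte markers were dim. The fatty acid carrier Fabp4, abundant in fat, read 82.1 and 84.3 in Lin28A Tg and 88.3 and 91.9 in WT, so only 1 array exceeded background and it was not tested. Pparg read 86.4 and 96.9 in Lin28A Tg and 101.0 and 95.3 in WT, with overlap (log2 fold change -0.10, SE 0.08, limma adjusted p = 0.809). The glycerol channel Aqp7 read 90.4 and 89.1 in Lin28A Tg and 96.9 and 97.0 in WT. Its groups did not overlap, with a log2 fold change of -0.11 (SE 0.05, limma adjusted p = 0.683), and Lin28A Tg replicate 2 was below background. Ucp1, the uncoupling protein of brown fat, read 91.3 and 95.6 in Lin28A Tg and 96.8 and 100.6 in WT, a difference of -0.08 (SE 0.06, limma adjusted p = 0.799) without overlap. Pck1, which makes glycerol phosphate in fat, was below background on all arrays, at 81.7 to 87.2. Of 8 brown fat markers 3 were tested (Cox8b, Ebf2 and Ppargc1a, which are not confined to brown fat), and the defining Prdm16, Dio2, Zic1 and Elovl3 were below background on all arrays. Log2 fold changes of the 10 adipocyte markers tested had a median of -0.19, beside 0.01 over all genes, and 9 of the 10 were negative. That median was -0.0037 without Lin28A Tg replicate 1 and -0.03 without WT replicate 1. The 26 other adipocyte and lipid storage genes tested had a median of 0.04, with 15 positive and 11 negative. Adipoq, Lep, Cfd, Cidea and Agpat2 were above background on all arrays, and so was Ucp1, but only narrowly. The adipocyte markers Fabp4, Plin1, Retn, Cidec, Pparg, Aqp7 and Pck1 were not above it on all arrays. No adipocyte marker was called. In bulk samples such as these, a difference in the number of fat cells and one in transcript per cell cannot be told apart, whether between groups or between arrays.

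**Figure D2:**
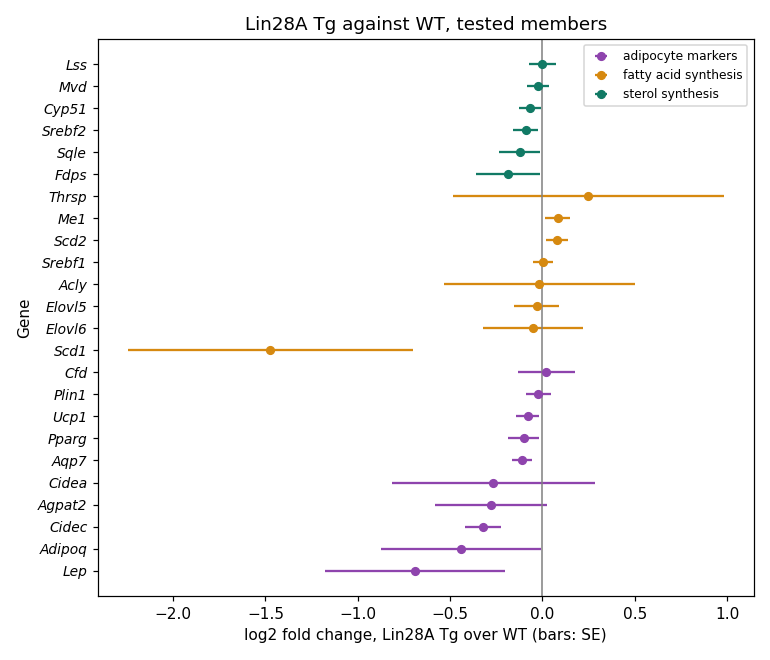
Log2 fold change of Lin28A Tg over WT for the 24 tested members, coloured by role, with bars of 1 SE from limma (2 arrays per group). Scd1 lies farthest from 0 at -1.47, with the longest bar (SE 0.77), and the sterol genes lie between -0.19 and 0.

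Fatty acid synthesis genes included the members with the widest spread. Scd1, the desaturase that makes oleic acid, read 337.7 and 1397 in Lin28A Tg and 2634 and 1380 in WT. Lin28A Tg replicate 1 was low, WT replicate 1 high, and the other arrays were nearly equal although they belong to different groups. The means were 867.3 ± 749 in Lin28A Tg and 2007 ± 886 in WT (SD, n = 2 each). The log2 fold change of -1.47 (SE 0.77, limma adjusted p = 0.706) was the most negative among the members. It ranged from -2.5 without Lin28A Tg replicate 2 to -0.45 without Lin28A Tg replicate 1. Scd2, the related desaturase, read 92.5 and 95.4 in Lin28A Tg and 90.5 and 87.1 in WT. Among the 24 tested it was the member with both Lin28A Tg arrays higher, and Pck1, below background throughout, also lay higher on both (Scd2 log2 fold change 0.08, SE 0.06, limma adjusted p = 0.783).

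Thrsp, the thyroid hormone responsive Spot 14 protein that promotes lipogenesis, read 206.7 and 862.1 in Lin28A Tg and 430.0 and 293.4 in WT. The Lin28A Tg pair enclosed the WT pair, 4.17-fold apart. Its log2 fold change of 0.25 (SE 0.73, limma adjusted p = 0.969) was 1.28 without Lin28A Tg replicate 1 and -0.78 without Lin28A Tg replicate 2. Acly, which supplies cytosolic acetyl-CoA from citrate, read 680.0 and 1633 in Lin28A Tg and 1413 and 805.6 in WT. Here too the WT arrays lay inside the Lin28A Tg range, and the log2 fold change was -0.02 (SE 0.52, limma adjusted p = 0.999). The elongase Elovl6, which extends palmitate, read 91.0 and 149.4 in Lin28A Tg and 133.5 and 109.1 in WT, in the same order of arrays (-0.05, SE 0.27, limma adjusted p = 0.982). Elovl5, the elongase of polyunsaturated fatty acids, read 686.8 and 840.1 in Lin28A Tg and 815.7 and 739.2 in WT. It kept that order within a 1.22-fold range.

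The remaining fatty acid genes were close to background. Me1, a source of NADPH for fatty acid synthesis, read 98.4 and 104.9 in Lin28A Tg and 98.8 and 93.3 in WT. Srebf1 lay between 89.9 and 91.2 on all arrays. Fatty acid synthase (Fasn), the central enzyme of the pathway, read 78.8 to 88.7, below background on all arrays, so nothing can be said of its level. The 8 genes tested had a median log2 fold change of -0.01, with 4 positive and 4 negative.

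Sterol synthesis genes showed little spread, but most lay near the background threshold, where the background left in the values understates folds. Fdps, which makes farnesyl diphosphate, was the brightest, at 320.3 and 415.7 in Lin28A Tg and 459.8 and 374.8 in WT. The groups overlapped, Lin28A Tg replicate 1 being lowest (log2 fold change -0.19, SE 0.17, limma adjusted p = 0.83). Without Lin28A Tg replicate 1 it was 0.00. Sqle, the squalene epoxidase, read 91.7 and 99.7 in Lin28A Tg and 114.0 and 95.2 in WT, WT replicate 1 standing above the rest. Srebf2 read 107.4 and 106.9 in Lin28A Tg and 118.6 and 109.5 in WT, without overlap (-0.09, SE 0.07, limma adjusted p = 0.787). The demethylase Cyp51 read 97.2 and 93.4 in Lin28A Tg and 99.8 on both WT arrays, also without overlap (-0.07, SE 0.06, limma adjusted p = 0.815). Mvd, the mevalonate decarboxylase, lay between 110.4 and 116.0, and Lss, the lanosterol synthase, between 85.6 and 92.4. The isomerase Idi1 was below background on all arrays, and the reductase Dhcr7 and the SREBP-retaining protein Insig1 exceeded it on 1 array each. All 6 sterol genes tested were negative with a median of -0.08, and WT replicate 1 was the highest array for all 6. These tallies include differences near 0: Lss was at -0.0009 and Mvd at -0.02, and the WT arrays were nearly equal for Cyp51.

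Several members differed widely between arrays of the same group. Scd1 had the widest range of any member, 7.80-fold, between Lin28A Tg replicate 1 and WT replicate 1. Lin28A Tg replicates 1 and 2 differed by at least 2-fold for 5 of the 24 members tested, namely Scd1, Thrsp, Acly, Lep and Cidea, each higher on replicate 2. Among all genes tested 31 differed so much (0.392%). The WT arrays differed by at least 2-fold for 0 of the 24, and for 73 of all genes (0.922%). Lin28A Tg replicate 1 was the lowest array for 14 members (58.3%) and the highest for 0, where it was lowest for 23.3% and highest for 29.7% of all genes. WT replicate 1 was the highest array for 15 members (62.5%) and the lowest for 0, where it was highest for 21.0% of all genes. An order with Lin28A Tg replicate 1 lowest, then WT replicate 2, Lin28A Tg replicate 2 and WT replicate 1 was shared by 8 members: Adipoq, Lep, Agpat2, Plin1, Pparg, Scd1, Fdps and Sqle. It held for 3.42% of all genes. The order with the last pair exchanged was shared by Acly, Thrsp, Cidea, Elovl5 and Elovl6, and by 3.14% of all genes. These counts are descriptions, since the genes were listed with earlier results of these arrays known.

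**Figure D3:**
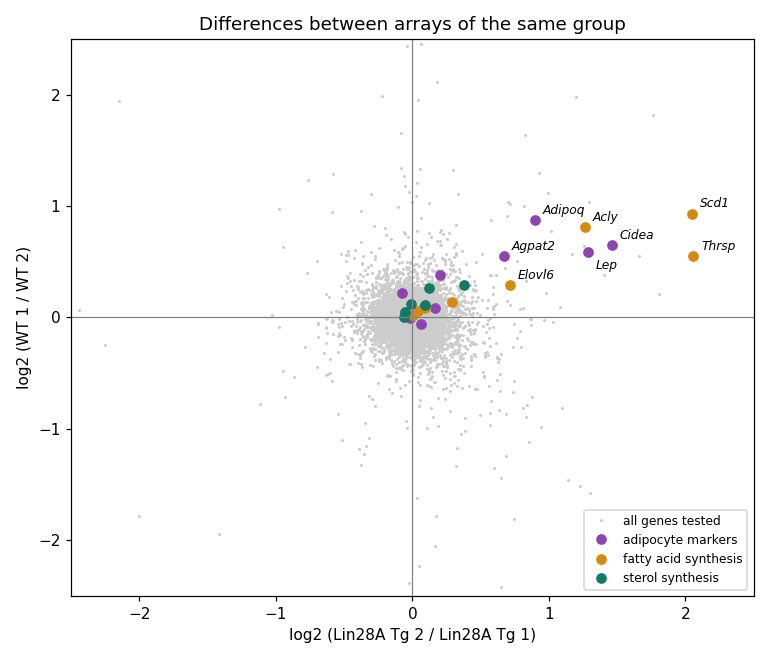
For each gene tested, the log2 ratio of Lin28A Tg replicate 2 over replicate 1 (horizontal) against that of WT replicate 1 over replicate 2 (vertical), with all 7918 genes in grey and the members coloured by role; 18 grey genes lie outside the plotted range of 2.5. Scd1, Thrsp, Acly, Lep, Cidea, Adipoq, Agpat2 and Elovl6 lie to the upper right, and most sterol genes lie near the origin.

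The hepatocyte markers were far higher on WT replicate 1 than elsewhere. The summed intensity of the 7 tested was 951 and 1444 in Lin28A Tg, 11797 on WT replicate 1 and 1066 on WT replicate 2. Of the 7, 6 were also higher on Lin28A Tg replicate 2 than on replicate 1, as were 3784 of all 7918 genes tested. The largest of these rises in intensity was that of Cyp2e1, from 334.4 to 592.1. With 1182 and 380.8 in WT, Cyp2e1 stood in the array order of Adipoq and Lep. Ahsg, Ambp, Ttr and Hpx, not tested, read 565.1 to 1847 on WT replicate 1. They were below background on both Lin28A Tg arrays and on WT replicate 2. For the 8 fatty acid genes tested the sums were 2284 and 5173 in Lin28A Tg and 5706 and 3598 in WT. Of the hepatocyte markers, Apoa2 read 89.9 and 88.8 in Lin28A Tg, 5506 on WT replicate 1 and 84.9 on WT replicate 2, while Alb and Fabp1 were below background on all arrays. The liver also expresses Scd1, Thrsp and Acly, and the part of liver transcripts in the members' values was not tested. Without that array the log2 fold change was -1.01 for Scd1, -0.40 for Lep, 0.53 for Thrsp and 0.39 for Acly. Haptoglobin (Hp), a hepatocyte marker that fat cells also make, read 147.3 and 280.1 in Lin28A Tg and 439.8 and 179.5 in WT. Like Cyp2e1, Hp stood in the array order of Adipoq and Lep. Hp was singled out after its values were seen. The summed intensity of fibroblast markers was not lowest on Lin28A Tg replicate 1, at 9722 and 9085 in Lin28A Tg and 9381 and 8079 in WT. That array was lowest for 1 of the 8 fibroblast markers and for 4 of the 13 muscle fibre markers tested.

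**Figure D4:**
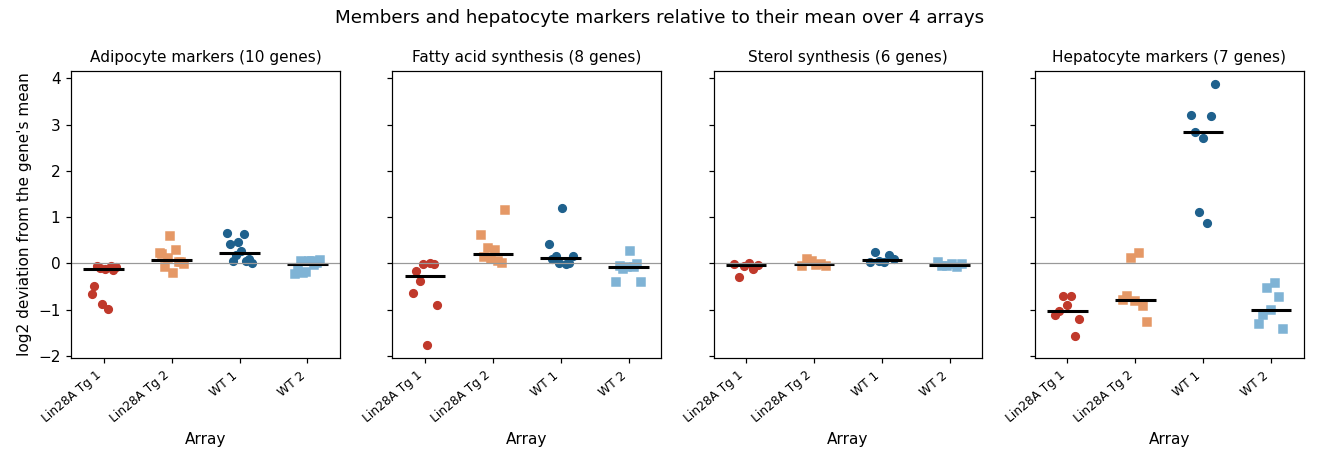
Log2 deviation of each tested gene from its own mean over the 4 arrays, by array, for the 3 roles and for the 7 hepatocyte markers tested; black lines are medians. The adipocyte and fatty acid genes are lowest on Lin28A Tg replicate 1 (medians -0.13 and -0.27), and the hepatocyte markers are high on WT replicate 1 (median 2.84).

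Other genes of the same pathways gave no call either. Of 30 other adipocyte and lipid storage genes 26 were tested, 2 at an unadjusted limma p under 0.05 higher in Lin28A Tg and 1 lower. Angptl4, a secreted inhibitor of lipoprotein lipase, read 220.9 and 240.6 in Lin28A Tg and 171.2 and 144.0 in WT, without overlap (log2 fold change 0.55, SE 0.11, limma adjusted p = 0.482). Gpd1, the glycerol phosphate dehydrogenase, read 449.7 and 535.3 in Lin28A Tg and 407.2 and 370.3 in WT (0.34, SE 0.11, limma adjusted p = 0.543). Caveolin 1 (Cav1), abundant in fat cells and in endothelium, read 403.3 and 329.5 in Lin28A Tg and 534.8 and 442.7 in WT (-0.42, SE 0.15, limma adjusted p = 0.551). The glucose transporter Slc2a4, expressed in muscle and fat, was at -0.21, the acyl-CoA synthetase Acsl1 at 0.23 and the acyltransferase Gpam at 0.12. Their groups did not overlap, and their limma adjusted p lay between 0.584 and 0.644. Dgat2, the last enzyme of triglyceride synthesis, and Aoc3, an amine oxidase of the fat cell surface, were chosen after their values had been seen. Dgat2 read 335.6 and 1064 in Lin28A Tg and 932.7 and 635.7 in WT, and Aoc3 309.5 and 741.2 in Lin28A Tg and 627.0 and 402.4 in WT. Both stood in the array order of Acly and Thrsp. Most of the 26 did not share the members' pattern. Lin28A Tg replicate 1 was lowest, with Lin28A Tg replicate 2 or WT replicate 1 highest, for 6 of the 26 (23.1%). That held for 13.9% of all genes tested and 54.2% of the members tested. WT replicate 1 was lowest for 9 of the 26 and highest for 2.

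Of 20 other fatty acid synthesis genes 19 were tested and 0 reached an unadjusted limma p under 0.05. Groups did not overlap for Mlxipl (ChREBP, the carbohydrate-responsive factor), at 0.17, the elongase Elovl1, at 0.12, and the AMPK subunit gene Prkaa2, at 0.13. They did not overlap either for G6pdx, a source of NADPH, at -0.11, and for the desaturase Fads2, at -0.10. The limma adjusted p of these 5 lay between 0.599 and 0.778. Fads2 read 85.8 and 87.9 in Lin28A Tg, both below background, and 94.2 and 92.2 in WT. It passed the filter through WT alone, so the filter fixed its lack of overlap. Of 25 other sterol genes 12 were tested and 0 reached an unadjusted limma p under 0.05. Pmvk, the phosphomevalonate kinase, read 96.4 and 90.9 in Lin28A Tg and 112.6 and 100.1 in WT, without overlap (-0.18, SE 0.08, limma adjusted p = 0.656). The desaturase Sc5d was at -0.07, the SREBP anchor Insig2 at -0.07 and the SREBP escort Scap at 0.10, with limma adjusted p between 0.76 and 0.828. Sc5d read 87.4 and 86.7 in Lin28A Tg, both below background, and 91.0 and 91.1 in WT. Like Fads2, it passed the filter through WT alone.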

How the data were processed

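The deposited values are linear intensities from Illumina Ref-8 arrays, 1 row per gene symbol; the labels' protocols give Trizol extraction, DNase treatment and biotin-labelled cRNA. At equal ranks the arrays differ by 0.0916% (median) and the lowest value is 72.8, so the authors had normalised between arrays and left background in. The software is not given in the sources used here. In another table, 8 value columns match no sample label and were not used. Of 18091 rows, 14090 symbols were current and 3065 were matched by an older name through RefSeq; the row with the highest mean was kept per symbol. Background was the mode of all values (84.8), and the threshold of 90.0 was its normal 95th percentile. Genes above it on at least 2 of 4 arrays were tested by group alone in limma 3.58.1 under R 4.3.3 (lmFit, then eBayes, on log2 intensity), and p was adjusted by Benjamini-Hochberg over all of them. Tables were read with Python 3.11.15 and pandas 2.3.3. The fit was tested on simulated data. Folds of dim genes are understated because background remains in the values. All members were to be named, and of each other pathway list up to 6 genes without overlap, by smallest p; a gene named outside this rule is marked as such. The members, roles and lists were chosen with earlier results of these data known.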

Additional observations from a re-analysis of the deposited data

How the results depend on the processing

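No member was called under any of the 12 alternatives, and no gene outside the members except without WT replicate 2, where 3 genes were called higher and 13 lower; leaving out 1 array gave 0 to 3 and 0 to 13 calls. With no filter, 647 genes were higher and 509 lower at an unadjusted limma p under 0.05, beside 399 and 301, since more genes were tested. At that p 2 members (Cidec and Aqp7) were lower with no filter, 2 with trend and robust eBayes and 2 with normexp at offset 16, and 0 under the stricter filter (above 92.8 on all 4 arrays). Members without overlap numbered 2 higher and 6 lower with no filter, which tested 31 members. Of these Pck1, counted higher, was below background on all arrays. They numbered 0 higher and 2 lower under the stricter filter, which tested 14 members. The share of all genes without overlap was not counted under these filters, so these counts have no share to be read against. Normexp, applied to the deposited intensities, which were already normalised, at offset 16 took the median of adipocyte markers to -0.42 and of sterol genes to -0.19. It enlarged the log2 fold changes of 17 of the 24 tested members by over 1.5 times and changed the sign of 0, with Lep at -1.10, Cidea at -0.58, Agpat2 at -0.52, Aqp7 at -0.32, Ucp1 at -0.22 and Scd2 at 0.24.

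Leaving out 1 array gave 212 to 356 genes higher and 169 to 329 lower at that p, 0 to 1 members higher and 0 to 2 lower, and 1 to 7 members higher and 5 to 18 lower without overlap, where 1 array then stands for a group. It is assumed that the lone array varies like the other group. A lone array clears the other group more easily than 2 arrays do, so the shares of all genes given earlier do not apply here. The share of all genes without overlap was not counted for these fits. Whether the members lack overlap more often than other genes was therefore not tested. Medians ran from -0.30 to -0.0037 for adipocyte markers, from -0.29 to 0.12 for fatty acid genes and from -0.11 to -0.017 for sterol genes. Log2 fold changes that changed sign ran from -0.89 to 0.011 for Adipoq, -0.61 to 0.059 for Agpat2, -1.0 to 0.47 for Cidea, -0.067 to 0.024 for Plin1, -0.17 to 0.21 for Cfd, -0.78 to 1.28 for Thrsp, -0.65 to 0.61 for Acly, -0.18 to 0.11 for Elovl5, -0.41 to 0.31 for Elovl6, -0.0051 to 0.015 for Srebf1, -0.37 to 0.0018 for Fdps, -0.25 to 0.0063 for Sqle, -0.056 to 0.054 for Lss and -0.050 to 0.0013 for Mvd. The cause was not tested.

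The replicate block left 389 genes higher and 277 lower at an unadjusted p under 0.05, 0 called, and the smallest member adjusted p at 0.571. Same-numbered samples did not deviate together (r = 0.037 across genes), and the labels do not pair them, so the numbers were treated as names. A low correlation over all genes cannot exclude a pairing of the samples. Dim genes within background limit what can be read of Fasn, Retn, Pck1 and Idi1.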
